A study of Mus musculus with 20 samples.

Results

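The 4 genes described here, Otx2, Neurod1, Neurod4 and Lhx4, encode transcription factors of developing and mature photoreceptors and bipolar cells of the retina. They were chosen by name, as every probe whose symbol in the platform annotation is 1 of these 4, and each had 1 probe among the probes that name 9230 genes on the array. Total RNA was taken from aliquots of 2 pools and measured on CodeLink arrays, a 1-colour platform to which biotin-labelled RNA is hybridised. The retina pool came from adult C57/B6 mice, and the cortex pool from Swiss-Webster pups of postnatal day 1. Both pools were hybridised to 5 arrays at each of 2 sites, named the first site and site 2 here, so the 20 arrays form 4 groups of 5. The stated purpose of the replicates was to measure variation within the platform and between sites. Within a group the 5 arrays repeat the same RNA as technical replicates, and p-values measure only the spread between them. Tissue, strain and age differ together between the pools and cannot be told apart. In bulk RNA, fewer cells of a type and less RNA per cell cannot be told apart either.

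OTX2 is a homeodomain protein that directs retinal precursors towards the photoreceptor fate and is kept in photoreceptors, bipolar cells and the pigment epithelium. It binds sites with the core TAATCC, which it shares with its relative CRX, in front of many photoreceptor genes. NEUROD1 and NEUROD4 are basic helix-loop-helix (bHLH) proteins that bind E-boxes together with a partner such as TCF3, TCF4 or TCF12. NEUROD1 acts in photoreceptors and also in growing neurons of the forebrain, and NEUROD4, also called MATH3, acts in bipolar and amacrine cell development. LHX4 is a LIM homeodomain protein of cone photoreceptors and cone bipolar cells and is also known from the developing pituitary and spinal cord.

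To show whether the DNA in front of these genes holds the letters that OTX2, LIM homeodomain proteins or bHLH proteins can bind, the 250 bases before each annotated transcription start were taken from RefSeq (assembly GRCm38.p6) and searched on both strands. The 4 motifs searched were TAATCC (OTX2 and CRX; GGATTA on the other strand), TAATTA (LIM and other homeodomain proteins; the same on both strands), CAGATG (an E-box of NeuroD proteins; CATCTG on the other strand) and CAGCTG (another E-box; the same on both strands). None of these 4 motifs overlaps another in the windows printed here. All 4 genes had at least 1 window in the table, Otx2 had 4 windows and Neurod4 had 2. In the sequences printed here a motif is in capitals, and each runs 5′ to 3′ on the gene's strand and ends 1 base before the start. The window shown for Otx2 is the one of its 4 that holds TAATCC, and the first window is shown for Neurod4. The windows lie at chr14:48665110-48665359 (minus strand) for Otx2, chr2:79456637-79456886 (minus) for Neurod1, chr10:130280255-130280504 (minus) for Neurod4 and chr1:155742028-155742277 (minus) for Lhx4.
Otx2: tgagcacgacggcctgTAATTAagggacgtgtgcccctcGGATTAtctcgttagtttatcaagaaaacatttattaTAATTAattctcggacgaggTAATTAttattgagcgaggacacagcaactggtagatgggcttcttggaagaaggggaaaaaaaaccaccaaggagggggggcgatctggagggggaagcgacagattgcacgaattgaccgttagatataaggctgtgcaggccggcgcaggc
Neurod1: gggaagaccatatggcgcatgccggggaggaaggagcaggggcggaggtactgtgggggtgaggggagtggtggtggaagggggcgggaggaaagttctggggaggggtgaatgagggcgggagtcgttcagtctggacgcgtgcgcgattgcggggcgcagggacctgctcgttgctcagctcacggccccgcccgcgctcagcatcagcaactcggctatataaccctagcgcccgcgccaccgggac
Neurod4: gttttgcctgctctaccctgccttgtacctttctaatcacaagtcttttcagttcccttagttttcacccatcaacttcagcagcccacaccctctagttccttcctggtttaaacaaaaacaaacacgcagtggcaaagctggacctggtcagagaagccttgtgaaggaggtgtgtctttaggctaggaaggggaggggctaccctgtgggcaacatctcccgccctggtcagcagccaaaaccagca
Lhx4: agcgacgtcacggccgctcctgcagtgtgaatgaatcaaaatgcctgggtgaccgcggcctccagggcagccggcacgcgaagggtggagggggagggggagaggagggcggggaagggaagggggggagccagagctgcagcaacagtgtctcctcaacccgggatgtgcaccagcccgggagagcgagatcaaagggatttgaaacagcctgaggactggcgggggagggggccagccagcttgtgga

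The Otx2 window held the reverse form of TAATCC at 211 to 206 bases before the start and 3 copies of TAATTA, which begin 234, 174 and 154 bases before it. Of the other Otx2 windows, 1 held TAATTA 141 bases before its start and 1 held CATCTG 59 bases before its start. The windows of Neurod1, Neurod4 and Lhx4 held none of the 4 motifs, which says only that these letters are not in these 250 bases. Among all 32851 windows of the table, 6.25% held TAATCC, 4.84% TAATTA, 14.4% CAGATG and 13% CAGCTG on either strand. Counted by gene over all its windows, the shares were 7.21%, 5.65%, 16.3% and 14.7% in the same order. Otx2 had 4 windows and the one shown was picked for TAATCC, so neither share measures how unusual its match is. A match is a description of the letters and not a site of binding.

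Before the values, some facts of the whole series bear on them. The deposited intensities have no unit. Array medians ran from 0.927 to 0.963, so a value of 1 is close to the median probe of an array, and no detection flag was used to tell a dim probe from background. Of 10339 probes tested, limma called 1229 higher and 1345 lower in retina at the first site and 1144 higher and 1398 lower at site 2, where called means at least 2-fold with an adjusted p (Benjamini-Hochberg over all probes) under 0.05. In percent of the probes tested these were 11.9 and 13 at the first site and 11.1 and 13.5 at site 2. Without the fold limit, 59.9% and 60.4% of probes had an adjusted p under 0.05 between tissues at the first site and site 2. How many probes had no overlap between the tissues was not counted, so arrays standing apart are not read as particular to a gene. The tissue labels were checked against markers. All 6 rod and all 4 cone markers tested were called higher in retina at both sites, and 5 of 6 markers of cortical excitatory neurons were called lower in retina. One array, cortex replicate 5 of site 2, had the lowest mean over all probes of its group (3.71, against 3.99 to 4.11 on the other 4) and read differently from them for several genes below.

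Otx2, Neurod1 and Neurod4 were higher in retina than in cortex at both sites, and Lhx4 was not called at either. In retina minus cortex on the log2 scale, Neurod4 was higher by 6.41 and 6.60 at the first site and site 2, Otx2 by 4.41 and 4.49, and Neurod1 by 3.12 and 3.12. Lhx4 differed by 0.23 and 0.12, which did not pass the test. Thus at each site 3 of the 4 genes were called higher in retina, where 11.9% and 11.1% of all probes were. None of the 4 was called lower. The median of all probes lay at -0.04 and -0.05 log2.

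**Figure D1:**
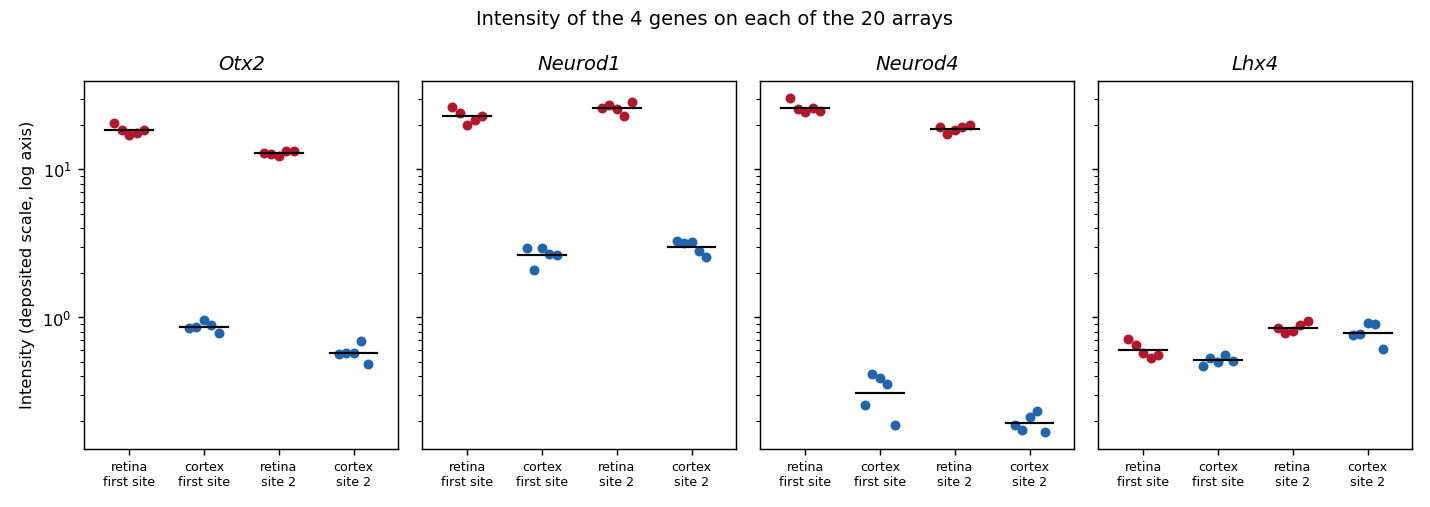
Intensity on the deposited scale (log axis) of Otx2, Neurod1, Neurod4 and Lhx4 on each of the 20 arrays, in 4 groups of 5 (red, retina; blue, cortex), with each point 1 array and each bar the geometric mean of its group. All retina arrays lie above all cortex arrays for the first 3 genes, and the tissues overlap for Lhx4 at both sites. The share of all probes without overlap between the tissues was not counted.

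Otx2, the homeodomain factor of photoreceptor fate, read 20.6, 18.6, 17.2, 17.6 and 18.4 on the 5 retina arrays of the first site, a mean of 18.5 ± 1.32 (SD, n = 5). On the cortex arrays of that site it read 0.851, 0.857, 0.961, 0.896 and 0.784 (0.870 ± 0.0651). Every retina array was high and every cortex array low, and the lowest retina value was 17.9 times the highest cortex value. At site 2 it read 12.9, 12.7, 12.4, 13.3 and 13.4 in retina (12.9 ± 0.403) and 0.564, 0.576, 0.575, 0.692 and 0.485 in cortex (0.578 ± 0.0740). The tissues were again apart on all arrays, and the retina arrays of site 2 lay closest together of the 4 groups, with a coefficient of variation of 3.11%. The fold of retina over cortex was 21.2 for Otx2 at the first site (log2 difference 4.41, SE 0.08, 95% interval 4.24 to 4.58, limma adjusted p = 2.1e-18) and 22.5 at site 2 (4.49, 4.32 to 4.66, adjusted p = 2.2e-18). By size of difference towards retina it ranked 62 and 53 among the 10339 probes. An exact permutation test on Otx2 alone, 5 arrays against 5, gave p = 0.0079 at each site, the smallest it allows.

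Neurod1, the bHLH factor of photoreceptors, read 26.6, 24.2, 19.8, 21.4 and 22.9 on first-site retina arrays (23.0 ± 2.59, SD, n = 5). Its cortex values there were 2.93, 2.09, 2.95, 2.69 and 2.63 (2.66 ± 0.344). All 5 cortex arrays read above the median probe of an array. At site 2 it read 26.1, 27.3, 25.5, 22.9 and 28.7 in retina (26.1 ± 2.16) and 3.27, 3.16, 3.21, 2.80 and 2.56 in cortex (3.00 ± 0.309). No cortex array came near a retina array at either site, and the lowest retina value was 6.73 and 7.02 times the highest cortex value. The difference was 8.67-fold at the first site (log2 3.12, SE 0.10, limma adjusted p = 4.1e-15) and 8.72-fold at site 2 (3.12, adjusted p = 4.3e-15). Its rank towards retina was 156 and 133. The exact permutation test gave p = 0.0079 at both sites.

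Neurod4, the bHLH factor of bipolar and amacrine development, had the largest difference of the 4. Its retina values were 30.5, 25.4, 24.3, 26.2 and 24.9 at the first site (26.3 ± 2.46, SD, n = 5), and its cortex values were 0.257, 0.418, 0.387, 0.353 and 0.188 (0.321 ± 0.0956). These cortex arrays were the most spread of any group of the 4 genes, with a coefficient of variation of 29.8% and 2.22 times between the highest and the lowest. At site 2 the retina arrays read 19.3, 17.2, 18.4, 19.2 and 19.9 (18.8 ± 1.03) and the cortex arrays 0.188, 0.173, 0.212, 0.232 and 0.169 (0.195 ± 0.0270). The cortex level at site 2 lay at the 25th percentile of all intensities of the table, 0.194, so the fold there rests on dim readings. The fold of retina over cortex was 85.1 for Neurod4 at the first site (95% interval 66.9 to 108, limma adjusted p = 1.2e-16) and 97.2 at site 2 (76.4 to 124, adjusted p = 6.8e-17), ranks 15 and 21 of all probes. The exact permutation test gave p = 0.0079 at both sites. With 0.1 added to each intensity before the logarithm the 2 differences were 6.0 and 6.01 log2.

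The cortex readings of Neurod4 at the first site had the same order as the rod markers. The summed intensity of the 6 rod markers tested was 5.69, 12.9, 11.1, 8.76 and 3.84 on cortex replicates 1 to 5 of that site, so that both were highest on replicate 2 and lowest on replicate 5, with the other 3 in the same order between them. At site 2 the rod sum was 1.63 to 1.91 on cortex replicates 1 to 4 and 6.48 on replicate 5, and there Neurod4 was lowest on replicate 5. The rod markers Rp1, Sag, Gnat1 and Rom1 read at most 0.119, 0.239, 0.203 and 0.231 on site 2 cortex arrays. The 6.48 thus came mostly from the other rod markers tested. On first-site cortex arrays the means of Rp1, Sag, Gnat1 and Rom1 were 0.620, 1.47, 3.19 and 0.938. On the first-site cortex arrays the cone sum ran from 0.383 to 1.03. None of the other 3 genes had this order there: Otx2 and Neurod1 were highest on replicate 3 and Lhx4 on replicate 4. In retina the rod sum was 355 to 466 on first-site arrays and 522 to 571 on those of site 2, and 0 of the 6 markers lay under the 5th percentile of all intensities in any group. How many of all probes had this order on the first-site cortex arrays was not counted, so it is not read as particular to Neurod4. The part of the rod marker levels in the Neurod4 result was not tested.

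**Figure D2:**
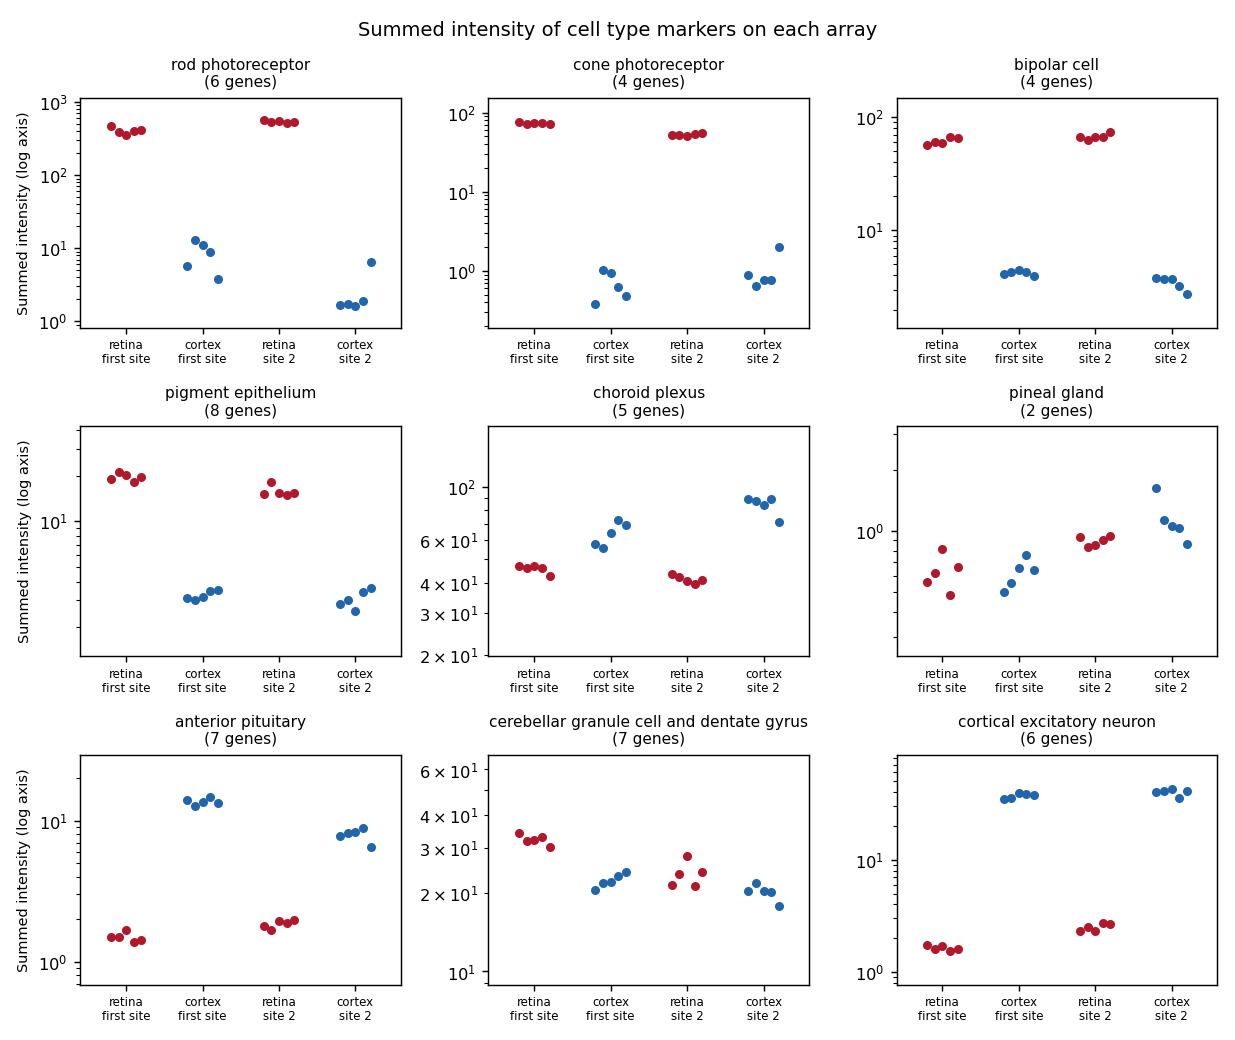
Summed intensity (log axis) of the tested markers of 9 cell types on each array, in 4 groups of 5 (red, retina; blue, cortex), with each point 1 array. The rod sum in cortex runs from 3.84 to 12.9 at the first site, while at site 2 only replicate 5, at 6.48, reaches that range. That 6.48 came mostly from rod markers other than Rp1, Sag, Gnat1 and Rom1.

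Lhx4, the LIM homeodomain factor of cones and cone bipolar cells, read 0.711, 0.656, 0.572, 0.534 and 0.560 on first-site retina arrays (0.607 ± 0.0743, SD, n = 5). In cortex there it read 0.470, 0.529, 0.501, 0.554 and 0.512 (0.513 ± 0.0311). The highest cortex array lay above the lowest retina array. At site 2 the retina values were 0.849, 0.789, 0.813, 0.896 and 0.942 (0.858 ± 0.0623) and the cortex values 0.758, 0.774, 0.922, 0.911 and 0.615 (0.796 ± 0.126), and the tissues overlapped again. The difference was 0.23 log2 at the first site (95% interval 0.01 to 0.45, limma adjusted p = 0.061) and 0.12 at site 2 (-0.10 to 0.34, adjusted p = 0.339). The exact permutation test gave p = 0.016 and p = 0.349. Both intervals end below a 2-fold difference. The 20 values of Lhx4 lay between 0.470 and 0.942, where 1 is close to the median probe. Without a detection flag the share of background in these readings is not known, so the small difference is not read as equal expression.

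**Figure D3:**
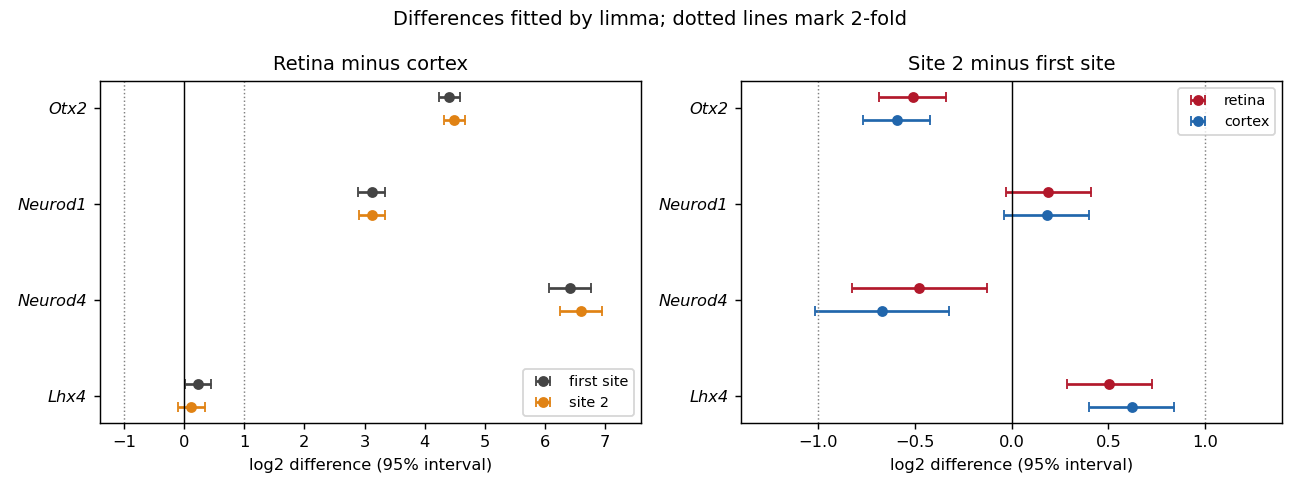
Log2 differences fitted by limma with 95% intervals for the 4 genes, as retina minus cortex at each site (left) and as site 2 minus first site in each tissue (right). Otx2, Neurod1 and Neurod4 lie between 3.12 and 6.60 on the left and Lhx4 at 0.23 and 0.12, and on the right all differences are smaller than 2-fold.

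The difference between tissues was tested for a difference between sites in the same fit. It changed by 0.08 log2 from the first site to site 2 for Otx2 (95% interval -0.16 to 0.33, limma adjusted p = 0.702) and by 0.01 for Neurod1 (-0.30 to 0.32, adjusted p = 0.985). For Neurod4 it changed by 0.19 (-0.30 to 0.68, adjusted p = 0.658) and for Lhx4 by -0.11 (-0.43 to 0.20, adjusted p = 0.679). None of the 4 was called, and limma called 75 of all probes, 0.725%, in this comparison (121 without cortex replicate 5 of site 2). After quantile normalization between arrays the change was 0.38 for Otx2 (adjusted p = 0.051) and 0.81 for Neurod4 (adjusted p = 0.030), still under 2-fold.

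Within a tissue, levels at site 2 differed from those at the first site by less than 2-fold, in different directions for different genes. Site 2 minus first site was -0.51 log2 for Otx2 in retina (limma adjusted p = 5.7e-05) and -0.60 in cortex (adjusted p = 1.2e-05). For Neurod4 it was -0.48 in retina (adjusted p = 0.024) and -0.67 in cortex (adjusted p = 0.0028). For Lhx4 it was 0.50 in retina (adjusted p = 6.5e-04) and 0.62 in cortex (adjusted p = 9.9e-05), beside 0.23 and 0.12 between the tissues. These 2 kinds of difference were not compared by a test. For Neurod1 the values were 0.19 in retina (adjusted p = 0.15) and 0.18 in cortex (adjusted p = 0.166), and the arrays of the sites overlapped in both tissues. None of these 8 differences reached 2-fold, so none was called, where 6.24% of all probes were called in retina and 7.21% in cortex. Without the fold limit, 46.7% of all probes in retina and 46.8% in cortex had an adjusted p under 0.05, so such p-values are not particular to these genes. Of the calls over all probes, 495 were up and 150 down at site 2 in retina and 547 up and 198 down in cortex. After quantile normalization these were 298 up and 176 down in retina and 251 up and 259 down in cortex, and for the site difference 38 up and 41 down, against 28 up and 47 down without it. In that setting Neurod4 in cortex differed by -1.02 between the sites, past the 2-fold limit.

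In order of level, Otx2 was highest in retina of the first site, then in retina of site 2, then in cortex of the first site and of site 2, and no neighbours in that order overlapped. For Neurod4 the order was the same, but the 2 cortex groups overlapped. For Neurod1 the retina groups overlapped with each other, as did the cortex groups, and only the tissues were apart. For Lhx4 both groups of site 2 came before both groups of the first site. All 3 pairs of neighbours in that order overlapped, while site 2 retina lay above first-site retina and site 2 cortex above first-site cortex on every array. The share of all probes without overlap between the sites was not counted, so such gaps are not read as particular to these genes.

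On 3 arrays all 4 genes stood at the same end of their group. Retina replicate 1 of the first site had the highest value of its group for all 4 genes, and so had retina replicate 5 of site 2. Cortex replicate 5 of site 2 had the lowest value of its group for all 4. The mean of all probes was 4.76 on the first of these arrays, against 4.19 to 4.27 on the other arrays of its group, 4.34 on the second, against 3.95 to 4.07, and 3.71 on the last. The part of these array-wide levels in the order of replicates was not tested. Without retina replicate 1 the first-site differences were 4.37 for Otx2, 3.06 for Neurod1, 6.36 for Neurod4 and 0.18 for Lhx4. Without cortex replicate 5 the site 2 differences were 4.43, 3.07, 6.55 and 0.03 in the same order of genes.

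Genes whose pattern over the 20 arrays was most like each of the 4 were found by the root mean square difference of log2 intensity, centred on each gene's own mean, among 8479 genes with a value on all arrays. Nearest to Otx2 were Spc25, a kinetochore protein (0.148 log2), Gpsm2, a regulator of spindle orientation (0.180), and Mab21l1, a gene of eye development (0.182). Nearest to Neurod1 were Cadm1, a cell adhesion molecule (0.133), Trf, transferrin (0.157), and Pcbp3, an RNA-binding protein (0.192). Nearest to Neurod4 were Prph2, the peripherin of photoreceptor outer segment discs (0.246), Sh2d1a, a signalling adaptor (0.297), and Pla2r1, a phospholipase receptor (0.346). Nearest to Lhx4 were Pold2, a DNA polymerase subunit (0.102), Faf1 (0.106) and Ankrd49 (0.132). Within 0.5 log2 there were 34 genes for Otx2, 146 for Neurod1 and 9 for Neurod4, but 3221 for Lhx4.

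Among relatives of Otx2, the paired-class homeobox genes, 1 of 11 tested was called higher in retina and 2 lower, at each site, with a median of -0.41 and -0.30 log2. The one called higher was Sebox, a homeobox gene of skin, embryo, brain and oocyte, at 6.21 and 6.68 (limma adjusted p = 1.6e-09 and 5.6e-10). Its cortex readings of 0.0568 and 0.0669 were near the 5th percentile of all intensities, 0.0445. Over the settings other than leaving out an array, the Sebox difference ran from 4.43 to 6.21 at the first site. At site 2 it ran from 4.57 to 6.97. Prrx2, a mesenchymal factor, was the only gene of the list called lower in retina at both sites (-2.12 and -1.68), and Shox2 differed by 0.09 and 0.05. Prrx2 was dim in both tissues, and with values below the 25th percentile set to it the difference was -0.48 and -0.22 and was not called. The count of genes lower at the first site was 1 without retina replicate 4 or 5 or cortex replicate 2 or 3 of that site, and 0 with the 25th percentile as a floor. At site 2 the count was 1 with that floor and 0 with a pseudocount of 0.1.

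Photoreceptor genes known as OTX2 or CRX targets were almost all on the retina side with Otx2. Of 23 tested, 21 were called higher at the first site and 22 at site 2, 0 were lower, and the medians were 5.34 and 6.94 log2. They included Sag, rod arrestin (6.20 and 9.5), Gnat1, rod transducin (5.34 and 10.17), Rp1, a protein of the photoreceptor axoneme (6.99 and 9.64), and Rom1, an outer segment disc protein (6.0 and 9.14). These 4 genes differed by more at site 2 than at the first site (2.66 to 4.83 log2 more, limma adjusted p from 4.6e-05 to 0.012), beside 0.08 for Otx2. Their first-site cortex readings, such as 0.905 to 5.24 for Gnat1, were above those at site 2, 0.0954 to 0.203. Impg1, a protein of the matrix around photoreceptors, had the smallest mean difference of the list (0.78 and 1.11).

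To set the printed windows beside those of such targets, 3 target windows with TAATCC are shown. By size of mean difference these windows came first among targets called at both sites. Windows on a single other chromosome were left out of this choice, though not of the shares given below. The printed windows were picked after the values were known and lie at chr1:87803430-87803679 (plus strand) for Sag, chr3:108092816-108093065 (plus) for Gnat2, cone transducin, and chr17:47400607-47400856 (minus) for Guca1a, the guanylate cyclase activator of photoreceptors. Capitals mark the motifs as before.
Sag: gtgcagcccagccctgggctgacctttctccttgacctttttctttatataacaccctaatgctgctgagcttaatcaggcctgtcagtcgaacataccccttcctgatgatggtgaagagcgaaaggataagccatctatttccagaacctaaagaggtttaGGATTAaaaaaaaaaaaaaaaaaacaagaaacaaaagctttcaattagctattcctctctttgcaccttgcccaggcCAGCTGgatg
Gnat2: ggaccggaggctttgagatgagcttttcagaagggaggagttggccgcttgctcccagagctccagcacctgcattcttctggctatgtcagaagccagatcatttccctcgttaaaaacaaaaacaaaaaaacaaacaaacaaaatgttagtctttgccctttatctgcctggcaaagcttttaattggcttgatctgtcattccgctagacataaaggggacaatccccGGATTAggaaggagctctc
Guca1a: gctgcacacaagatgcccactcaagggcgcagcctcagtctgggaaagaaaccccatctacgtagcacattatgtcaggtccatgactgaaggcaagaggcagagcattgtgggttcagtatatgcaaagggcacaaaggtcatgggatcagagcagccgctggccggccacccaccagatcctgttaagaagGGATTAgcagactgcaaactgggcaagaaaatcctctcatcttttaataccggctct

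The reverse form of TAATCC stood 87 to 82 bases before the start of Sag, 19 to 14 before that of Gnat2 and 57 to 52 before that of Guca1a, and Sag also held CAGCTG at 10 to 5. Of the targets called at both sites, 14 genes had 17 windows in the table, and 7 of the windows (41.2%) held TAATCC. Among the 9366 windows of all genes named on the array the share was 5.04%. These targets were listed because OTX2 or CRX is known to act on them, so the share is no independent result.

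Relatives of Neurod1 and Neurod4 were called in both directions. Of 10 neural bHLH genes tested, 1 was called higher in retina and 3 lower, at each site, with medians of -0.25 and -0.12 log2. Over all probes 11.9% and 11.1% were called higher at the first site and site 2, and 13% and 13.5% lower. With 10 genes, no direction of the family is read from these counts. Neurod6, which marks excitatory neurons of the cortex, differed by -6.15 and -6.27 (limma adjusted p = 7.1e-17 and 4.7e-17), Neurod2, of the same neurons, by -2.49 and -2.78, and Olig1, of the oligodendrocyte lineage, by -5.11 and -4.22. Nhlh2 was the one called higher (2.37 and 2.70), and Tal1, a blood and vascular factor, differed by 0.08 and -0.00. Within the NeuroD family, then, Neurod1 and Neurod4 were higher in adult retina and Neurod2 and Neurod6 in newborn cortex, at both sites and after quantile normalization.

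Of 11 dimer partners and Id, Hes and Hey repressors, 1 was called higher in retina at each site, 3 were lower at the first site and 2 at site 2, with medians of -0.69 and -0.71. At the first site 2 were higher without cortex replicate 1 or 4 of that site. The partner Tcf4 was lower in retina (-1.49 and -2.23), as was the repressor Heyl (-1.52 and -1.14). The repressor Hey2 was higher (1.54 and 1.75), and the partner Tcf12 differed by 0.22 and 0.44. With values below the 25th percentile set to it, Hey2 at the first site (0.45) and Heyl at site 2 (-0.95) were not called. Of the partners tested, Tcf3, Tcf4 and Tcf12, none was called higher in retina at either site.

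Among LIM homeobox genes and their cofactors, the relatives of Lhx4, 2 of 12 tested were called higher at each site, 5 were lower at the first site and 4 at site 2, with medians of -0.91 and -0.68. Isl1, a factor of bipolar, amacrine and ganglion cells, was higher (2.36 and 2.20, limma adjusted p = 5.5e-14 and 1.5e-13), as was Isl2 of ganglion cells (3.01 and 1.74). Lhx6, of cortical interneurons, was lower (-5.09 and -4.05), as was the LIM-only cofactor Lmo4 (-2.06 and -2.25). Lhx1, a factor of horizontal cells, differed by 0.47 and 0.25. Isl2 was dim in cortex, and with values below the 25th percentile set to it the difference was 0.87 and 0.34 and was not called.

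**Figure D4:**
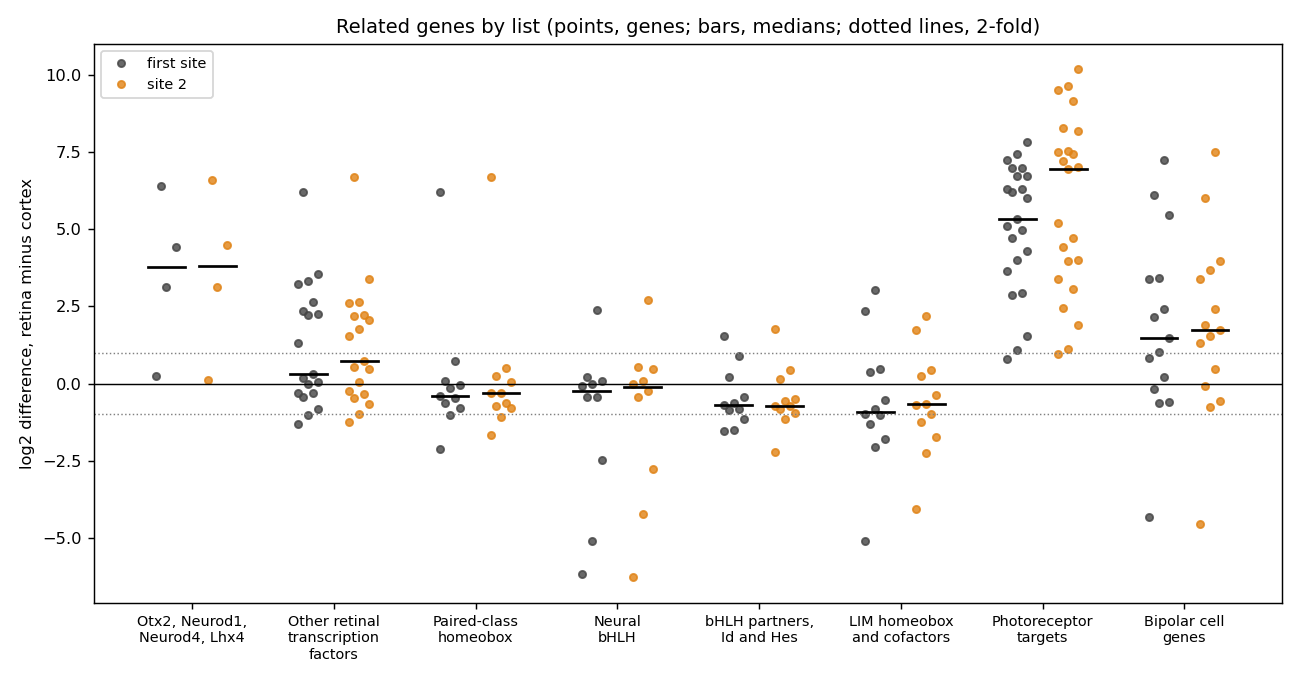
Log2 difference, retina minus cortex, of each gene in 7 lists and of the 4 genes at the first site (grey) and site 2 (orange), with each point 1 gene, the bars medians and the dotted lines 2-fold. The photoreceptor targets have medians of 5.34 and 6.94, while the medians of the paired-class, bHLH and LIM lists lie between -0.91 and -0.12.

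Other transcription factors of the retina, 19 tested of 42 listed, had 9 called higher at each site and 2 and 1 called lower, with medians of 0.30 and 0.72. The lower count was 1 at the first site without retina replicate 1 or cortex replicate 5 of that site, and 2 at site 2 without retina or cortex replicate 4 of that site, so no difference between sites is read from it. Pax6, of amacrine and ganglion cells, was higher (3.21 and 3.37), as were Rora, an orphan nuclear receptor (3.53 and 2.66), and Prdm1, which restrains bipolar fate in photoreceptor precursors (3.31 and 2.22, or 2.80 at site 2 without cortex replicate 5). Sebox, given above among the paired-class genes (6.21 and 6.68), is also in this list, and its call is counted in both. Rxrg, a cone nuclear receptor, differed by -0.01 and 0.04. Crx and Nrl, named in the list, were not analysed here.

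Genes of bipolar cells, where OTX2, NEUROD4 and LHX4 are known to act, had 9 of 15 called higher at the first site and 10 at site 2, 1 lower at each, and medians of 1.48 and 1.72. Gnb3, a transducin subunit of cones and ON bipolar cells, was higher by 7.22 and 7.50, Pcp2, a protein of rod and some cone bipolar cells, by 5.46 and 6.0, and Cabp2, a calcium-binding protein, by 6.10 and 3.95. Cabp2 read 2.05 on cortex replicate 5 of site 2 and 0.131 to 0.199 on the other cortex arrays of that site that had a value, and without replicate 5 its difference was 4.88. Nnat, neuronatin, was lower (-4.31 and -4.55), and Rgs7 differed by -0.18 and -0.10.

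Other tissues also use these factors, so their markers were read beside them. The pigment epithelium, which keeps Otx2, had 6 of 8 markers called higher in retina at the first site and 5 at site 2. Their sum was 18.2 to 21.2 in retina and 3.03 to 3.53 in cortex at the first site, and 15.0 to 18.1 and 2.57 to 3.63 at site 2, and Rpe65, the retinoid isomerase of this epithelium, was higher by 4.63 and 4.99. The part of pigment epithelium in the Otx2 result was not tested. Markers of the choroid plexus, which also keeps Otx2, summed to 42.7 to 46.8 on first-site retina arrays and 55.7 to 73.3 on first-site cortex arrays. For site 2 these sums were 39.5 to 43.3 and 71.8 to 89.7. Most of each sum was Ttr, transthyretin, whose mean was 36.4 (retina) and 61.1 (cortex) at the first site and 33.7 and 81.4 at site 2. Ttr differed by -0.74 and -1.27, and the direction of the sums is that of Ttr. Of the 5 markers, 2 (Aqp1 and Folr1) went the other way and were called higher in retina, and Cldn2 and Sostdc1 were not called at either site. The part of choroid plexus in the Otx2 result was not tested. For the anterior pituitary, where Lhx4 and Neurod1 act in development, 0 of 7 markers were higher and 2 lower in retina at each site, with 1 higher at site 2 without retina replicate 2 of that site. Its sum was 1.38 to 1.69 in retina and 12.7 to 14.6 in cortex at the first site, and 1.68 to 1.99 and 6.54 to 8.88 at site 2. Most of the first-site cortex sum was Gh, growth hormone, which read 0.0607 in retina against 11.4 in cortex there. The part of these cells in the cortex readings of Neurod1 and Lhx4 was not tested. Both pineal markers were uncalled at both sites. Of 7 markers of cerebellar granule cells and dentate gyrus, where Neurod1 is known to be high, 2 were higher and 4 lower in retina at the first site and 2 and 3 at site 2. Those higher included Pax6 (3.21 and 3.37), given above among the factors of the retina, and those lower included Zic1 (-3.29 and -3.08). One of the 4 lower calls, Dsp, desmoplakin (-1.25, limma adjusted p = 0.049), was lost with any of 13 of the 20 arrays left out in turn, and with a floor at the 25th percentile or a pseudocount of 0.1 the list had 2 lower calls at the first site. Of the 4 bipolar cell markers, 3 were higher at each site.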

How the data were processed

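Each of 20 CodeLink arrays was read from 1 table of intensities on a linear scale, as the authors deposited it. Its 20 columns were matched to the arrays by the sample identifier that names each column. RNA was labelled with biotin by the CodeLink assay, per the labels' protocols. For scanner software, background correction and scaling the method is not given in the sources used here, and 143 values were at or below 0 and 2080 blank. Of 10500 probes, 10339 with a value above 0 on at least 3 of 5 arrays in each group were tested. Since the medians of log2 intensity differed by at most 0.0594 between arrays, the deposited scaling was kept. Probes were named from the platform annotation (9378 with 1 symbol, 8 with several, 1114 with none, and only the first kind was named). For 9323 probes the Entrez identifier was found in RefSeq (GRCm38.p6), with 0 symbols changed.

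Log2 intensities were fitted with limma 3.58.1 in R 4.3.3 (a mean per group over all 20 arrays, eBayes), after the same code was tested on simulated data. P-values are 2-sided, adjusted by Benjamini-Hochberg over all probes of a comparison. Python 3.11.15 made the tables and plots. The 4 genes, the 7 lists of related genes, the 9 marker lists and the thresholds were chosen with earlier results of these data known. Genes named from a list are up to 4 with the largest mean difference over the sites among those called the same way at both, and the one with the smallest. From a marker list they are the 2 with the largest mean difference and any called at 1 site only, and beside each of the 4 genes the 3 of most alike pattern. Tcf3 and Guca1a were added outside this rule after their values were seen. Alternatives were 2 floors, a pseudocount of 0.1, quantile normalization, median centring, 2 other probe filters, an intensity trend, no fold limit, fits on only the groups compared, the replicate number as a block, and each array left out in turn. Replicate numbers do not pair the arrays: same-numbered arrays deviated with correlations from -0.0784 to 0.0536.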

Additional observations from a re-analysis of the deposited data

Results flagged for a closer look

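Of the groups of arrays tested, 4 for each of the 63 genes named, 23 (9.13%) had 1 array far from the others, where chance alone gives about 1 in 20, and 0 of the 16 groups of Otx2, Neurod1, Neurod4 and Lhx4 had one. Cortex replicate 5 of site 2 was the far array for 10 of the 23. There it read high for Prdm1 (2.30, others 0.290 to 0.321), Cabp2 (2.05, others 0.131 to 0.199) and Gnat2 (1.47, others 0.0555 to 0.0721). It read low for Olig1 (0.662, others 0.933 to 1.05), Tal1 (14.2, others 18.3 to 20.3), Lhx6 (0.859, others 1.14 to 1.26), Rgs7 (3.56, others 3.88 to 3.97), Tbr1 (2.19, others 2.79 to 3.06), Pcbp3 (3.21, others 4.14 to 4.38) and Ankrd49 (52.6, others 62.5 to 67.1).

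Retina replicate 1 of the first site, the array on which all 4 factors were highest, stood far above its group for Tal1 (21.9, others 17.1 to 18.3), Hey2 (0.335, others 0.242 to 0.262) and Cadm1 (11.7, others 9.48 to 9.90). In retina at the first site, Ttr was also low on replicate 5 (34.2, others 36.6 to 37.5) and Aanat high on replicate 3 (0.604, others 0.293 to 0.359). In cortex there, Olig1 was high on replicate 3 (2.65, others 1.5 to 1.65). In retina at site 2, Tcf4 was low (3.69, others 4.54 to 4.83) and Tcf12 high (4.30, others 2.86 to 3.14) on replicate 3. On replicate 2 of that group Isl1 was high (7.67, others 5.28 to 5.66), as was Slc45a2 (1.93, others 0.357 to 0.525). Rom1 was high on replicate 1 (138, others 107 to 113) and Heyl on replicate 5 (0.404, others 0.138 to 0.188). In cortex at site 2, Slc45a2 was high on replicate 4 (0.533, others 0.298 to 0.321).

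The difference between tissues itself differed between the sites, by limma's test of that change and by at least 2-fold, for 6 of the genes named. On the log2 scale it was larger at site 2 by 4.83 for Gnat1, 3.30 for Sag, 3.13 for Rom1 and 2.66 for Rp1. For Isl2 it changed by -1.27, a smaller difference at site 2, and for Lhx6 by 1.04, a difference less negative at site 2. None of the 4 factors changed so.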

How the results depend on the processing

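Otx2, Neurod1 and Neurod4 were called higher in retina at both sites, and Lhx4 was not called, in every setting tried and with each of the 20 arrays left out. At the first site Lhx4 had an adjusted p of 0.022 under quantile normalization and 0.041 in a fit of only the groups compared, still under 2-fold. Over the settings other than leaving out an array, Otx2 ranged from 4.26 to 4.41 and 4.27 to 4.64 log2 at the first site and site 2, Neurod1 from 2.94 to 3.12 and 3.08 to 3.15, Neurod4 from 6.0 to 6.41 and 6.01 to 7.02, and Lhx4 from 0.20 to 0.29 and 0.11 to 0.17. The replicate number does not pair the arrays, and with it as a block limma called 2573 probes at the first site, against 2574 without it, and gave Otx2 4.41 (adjusted p = 1.1e-14) and Lhx4 an adjusted p of 0.093, with no call of the 4 genes changed.

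With no limit on the fold, 6192 and 6247 probes were called between tissues, 411 for the site difference, 4825 between sites in retina and 4841 in cortex. Between sites, Otx2 (-0.51 and -0.60), Neurod4 (-0.48 and -0.67) and Lhx4 (0.50 and 0.62) then counted as called in retina and cortex. With a pseudocount of 0.1 these counts were 35 for the site difference, 255 in retina and 370 in cortex, and with a floor at the 25th percentile 312 in retina and 396 in cortex. Quantile normalization made Neurod4 between sites in cortex a call (-1.02, adjusted p = 1.9e-05). Leaving out an array gave 56 to 121 calls for the site difference, the highest without cortex replicate 5 of site 2, and moved that of Neurod1 between -0.048 and 0.091, around 0. The causes were not tested, apart from the fold limit, which removes calls by construction.

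Small uncalled differences turned sign. Under quantile normalization these were Tal1 (-0.0073) and Aanat (0.028) at the first site and Rxrg (-0.023) and Shox2 (-0.019) at site 2, with Tal1 (0.018) under median centring and Tph1 (-0.022) with the pseudocount. Dsp at site 2 was 0 at the 25th percentile floor, against 0.22. With 1 array left out, Rxrg ranged from -0.033 to 0.024 at the first site, and at site 2 Rxrg from -0.055 to 0.11, Shox2 from -0.059 to 0.11, Tal1 from -0.086 to 0.041, Tph1 from -0.16 to 0.38, Dsp from -0.045 to 0.53 and Ankrd49 from -0.031 to 0.062. With 5 technical replicates of 2 pools, no unit and no detection flag, dim readings such as Neurod4 in cortex bound how well its fold is known. The lack of a detection flag also bounds what the small differences of Lhx4 show.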
